A study of Homo sapiens with 6 samples.

Results

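The 46 human nuclear receptors measured here were the rows of the deposited count table whose gene name is a receptor gene, 46 of 58735 named genes. They were followed in LS174T, a line derived from a human colorectal adenocarcinoma and described as goblet-like in its labels, meaning that it resembles the mucus-secreting cells of the gut. Poly(A) RNA was sequenced from 3 libraries labelled as FXYD3 knockout and from 3 libraries labelled as wild type, with no treatment in either group. FXYD3 is a small membrane protein that regulates the Na,K-ATPase. The sources used here give neither how the knockout was made, nor the number of clones, nor whether replicates were separate cultures, so p-values measure the spread between these libraries only.

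Nuclear receptors are transcription factors that bind DNA through a zinc finger domain and, in many cases, are switched by a small lipophilic ligand such as a steroid, a retinoid, a bile acid or thyroid hormone. Many bind next to a retinoid X receptor as a heterodimer, and they recruit coactivators or corepressors according to the ligand they hold. Orphan receptors are those for which no ligand is established or which act without one. In the intestine the family is known for sensing dietary lipids, bile acids, vitamin D and drugs.

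Depth in named genes was 15417232, 19453217 and 16581832 reads in the knockout-labelled libraries, against 17585885, 17596549 and 16507805 reads in wild type. Levels are CPM, read counts divided by the TMM-scaled library size and set to a common scale, and each fold change divides the knockout-labelled by the wild-type level. A gene was called where its Benjamini-Hochberg adjusted p from edgeR was below 0.05 over the 15351 genes tested. FXYD3 itself averaged 5.61 ± 0.93 CPM in knockout-labelled and 3.88 ± 1.07 CPM in wild-type libraries (SD, n = 3 each), so its transcript was not lower in the libraries labelled as knockout (log2 fold change 0.54, SE 0.20, edgeR adjusted p = 0.0522). The change was called higher when wild-type library 2 was left out (log2 fold change 0.79, edgeR adjusted p = 0.00313). Counts over a whole gene do not show whether a coding sequence was disrupted. All 9 epithelial markers were measured, of which 0 were called higher and 2 lower, beside 12% and 12.4% of all tested genes. All 6 goblet cell markers that passed the filter were called lower. The goblet cell markers CLCA1 and ZG16 were not tested. CLCA1 had 13 counts summed over knockout-labelled and 2 over wild-type libraries, and ZG16 had 0 and 6. Summed fibroblast markers held 5.47 to 7.10 CPM in knockout-labelled and 0.337 to 0.868 CPM in wild-type libraries. In knockout-labelled libraries most of that was COL3A1, while COL1A2 and PDGFRA had 0 counts in all libraries. The leukocyte markers PTPRC, CD3E and CD79A and the endothelial markers PECAM1 and KDR also had 0 counts. The part of these shifts in the receptor results was not tested.

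Of the 46 receptors, 31 reached at least 1 CPM in all 3 knockout-labelled libraries and 28 did so in all 3 wild-type libraries. The same 28 were above that level in both groups, 3 (ESRRG, ESR2 and RORA) were so in the knockout-labelled group only, and 15 in neither. A receptor switched if all 3 libraries of one group were at or above 1 CPM and all 3 of the other were below it. ESRRG alone met that rule, with 2% of all tested genes switching in either direction and 1.03% switching on in knockout-labelled libraries. ESR2 and RORA missed it because 1 or more wild-type libraries lay above 1 CPM, and ESR2 met it when wild-type library 2 was left out, which made 2 switching receptors.

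The edgeR fit tested 33 receptors and called 13 of them (39.4%), beside 24.3% of all tested genes. It called 7 higher in knockout-labelled libraries (21.2% of those tested), beside 12% of all genes, and 6 lower (18.2%), beside 12.4% of all genes. A further 20 were not called. The receptors higher were ESRRG, THRB, NR2F1, NR4A3, NR3C2, HNF4G and NR2C1, and those lower were NR4A2, PPARG, PPARD, NR1H2, NR1D1 and NR0B2. Most of these changes were small, since only ESRRG and THRB rose and only NR0B2 fell by at least 1 on the log2 scale, where 3.18% and 2.92% of all genes did so in the same directions. In 16 of the 33 (48.5%) the libraries of the groups did not overlap, beside 37.2% of all tested genes. Whether these shares differ from those of all genes was not tested. The median log2 fold change was -0.02 over the tested receptors and 0.002 over all tested genes. ESRRG passed the filter on low counts through the knockout-labelled group only and NR0B2 through the wild-type group only, so each had to differ to be tested, and the counts above include both.

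**Figure D1:**
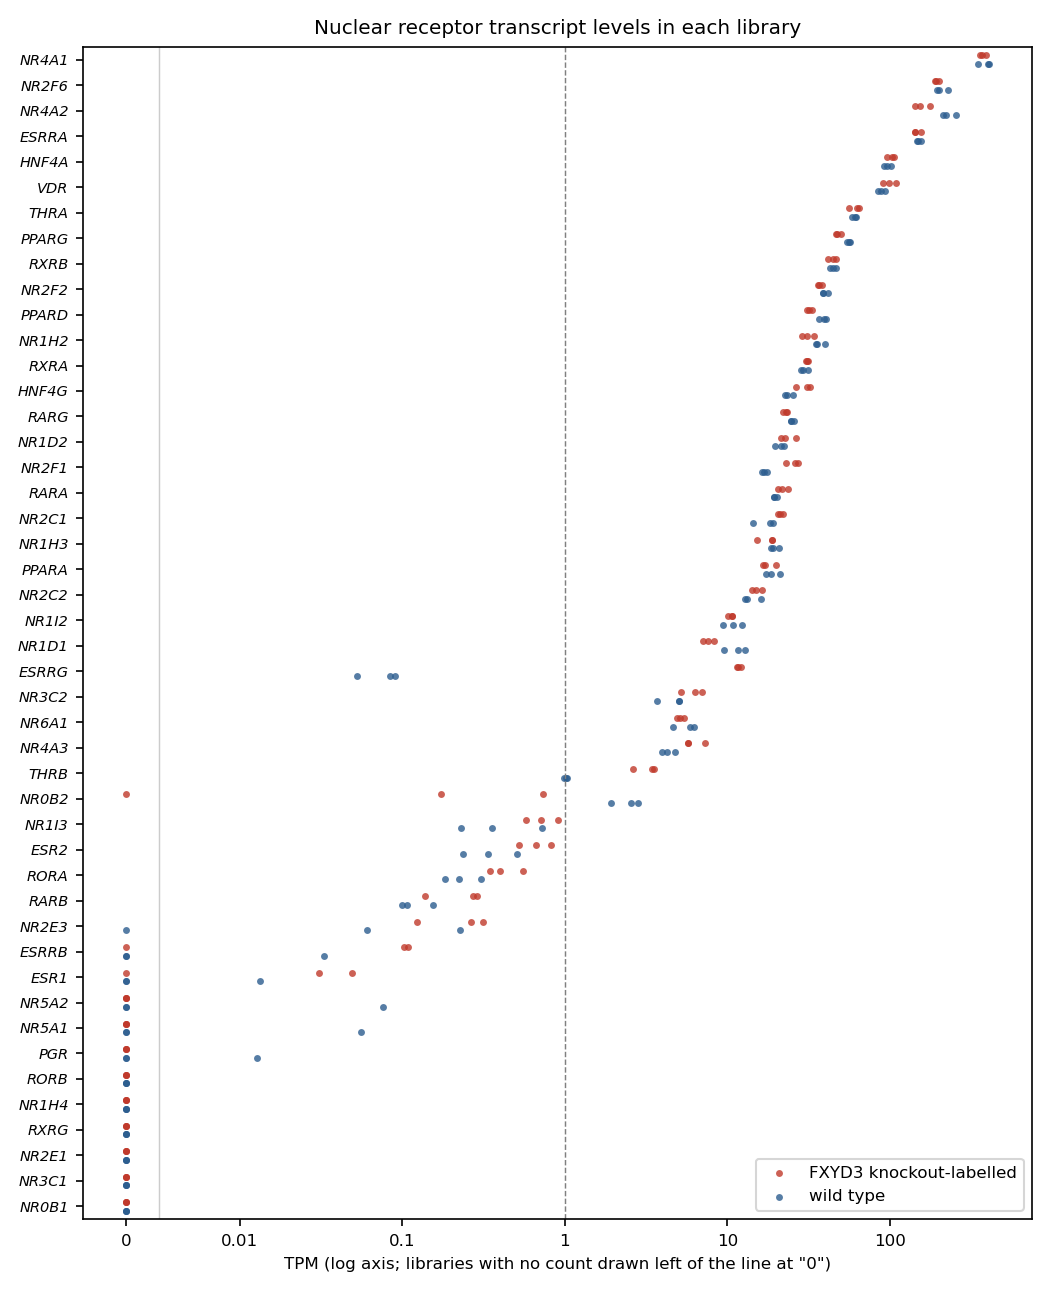
Transcript level of each of the 46 receptors in TPM (horizontal log axis), which scales by gene length so that levels can be set side by side between genes. The length covers all annotated exons of a gene, so the level of a gene expressed as a shorter transcript is understated. Each point is 1 library, knockout-labelled above wild type in each row, the dashed line is 1 TPM, and libraries with no count are drawn at 0. NR4A1 is highest in both groups, and the ESRRG points of the groups lie far apart.

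On the TPM scale NR4A1 had the highest level of the family, at 357, 388 and 368 TPM in knockout-labelled and 352, 407 and 401 TPM in wild-type libraries. All 6 of these values lay above every library of the next receptor, NR2F6. NR2F6 lay above ESRRA in all libraries of both groups. NR4A2 had 144, 177 and 154 TPM in knockout-labelled libraries, below all NR2F6 values there and overlapping ESRRA. In wild type its 222, 256 and 211 TPM overlapped NR2F6 and lay above ESRRA. Summed over the family, receptor transcripts came to 1552, 1658 and 1607 TPM in knockout-labelled and 1617, 1736 and 1701 TPM in wild-type libraries. The ranges of the groups overlapped. The 3 most abundant receptors made up 45.1% of that sum in knockout-labelled and 48.9% in wild-type libraries.

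Before the values, the start regions of 3 receptors are shown, chosen because their transcripts switched (ESRRG), rose the most after it (THRB) or were called lower and carry the receptor core motif at their own start (PPARG). Each is a RefSeq window of 300 bases on GRCh38.p14, from 250 bases before an annotated start to 50 after it, written 5′ to 3′ on the strand of the gene. Capitals mark AGGTCA or its reverse complement TGACCT, the core to which many receptors bind. The windows are ESRRG chr1:217137653-217137952 (minus strand), a second ESRRG start at chr1:217076943-217077242 (minus strand), THRB chr3:24495659-24495958 (minus strand) and PPARG chr3:12287118-12287417 (plus strand). The second ESRRG start was picked from 8 because it holds AAAGGTCA, which contains the core, so its core motif was fixed by that choice.
ESRRG outer start: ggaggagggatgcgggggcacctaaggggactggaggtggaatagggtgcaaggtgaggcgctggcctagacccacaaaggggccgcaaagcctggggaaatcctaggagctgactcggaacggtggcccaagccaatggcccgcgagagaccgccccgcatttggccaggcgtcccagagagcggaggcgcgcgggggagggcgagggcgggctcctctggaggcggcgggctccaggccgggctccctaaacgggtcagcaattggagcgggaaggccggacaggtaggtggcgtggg
ESRRG inner start: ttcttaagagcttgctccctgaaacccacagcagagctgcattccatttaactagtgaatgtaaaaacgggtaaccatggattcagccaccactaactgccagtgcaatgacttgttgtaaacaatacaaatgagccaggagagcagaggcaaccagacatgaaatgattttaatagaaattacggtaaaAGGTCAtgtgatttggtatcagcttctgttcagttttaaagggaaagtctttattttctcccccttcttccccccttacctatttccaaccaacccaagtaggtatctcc
THRB start: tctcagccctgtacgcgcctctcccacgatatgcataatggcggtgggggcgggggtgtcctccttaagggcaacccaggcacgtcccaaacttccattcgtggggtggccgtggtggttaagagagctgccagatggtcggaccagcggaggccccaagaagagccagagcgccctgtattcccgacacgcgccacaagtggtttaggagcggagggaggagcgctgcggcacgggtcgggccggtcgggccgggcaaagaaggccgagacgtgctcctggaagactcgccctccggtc
PPARG start: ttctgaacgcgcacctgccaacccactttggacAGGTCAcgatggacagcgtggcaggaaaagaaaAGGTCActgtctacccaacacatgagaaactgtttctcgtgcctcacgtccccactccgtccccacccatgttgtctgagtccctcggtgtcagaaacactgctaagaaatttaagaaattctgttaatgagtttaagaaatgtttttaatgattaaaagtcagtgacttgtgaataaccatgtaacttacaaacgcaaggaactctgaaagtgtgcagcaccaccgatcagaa

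The outer ESRRG window held 23 CG dinucleotides and 0 core motifs, and the inner ESRRG window held 2 CG and 1 core motif. The THRB window held 26 CG and 0 core motifs, and the PPARG window held 10 CG and 2 core motifs, while the median window of the table held 14 CG. ESRRG has 8 annotated start windows and THRB has 2, and counts per gene do not show which start was used. Windows were present for 41 receptors, 96 in all, and those of HNF4G, NR0B2, NR2F6, NR4A2 and VDR were not in the table. AGGTCA or TGACCT was found in 16 of the 96 receptor windows (16.7%), which belong to 11 receptors, beside 13.8% of the 35116 windows of all genes. The longer AAAGGTCA, which contains the core and resembles the site of REV-ERB and ROR, was found on either strand in 4 receptor windows (4.17%), beside 1.22% of all windows. Those 4 belong to ESRRG, PPARG, ESR2 and NR2E1. TCAAGGTCA, the site of oestrogen-related receptors, which also contains the core, was in 0 receptor windows and in 0.353% of all windows. The E-box CACGTG, bound by clock and MYC factors, was in 9 receptor windows (9.38%), beside 7.26% of all windows. These are matches of letters only.

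Among the oestrogen-related receptors, orphan receptors that drive mitochondrial and energy metabolism genes, ESRRG was on in the knockout-labelled libraries and near the detection limit in wild type, while ESRRA was not called. ESRRG (ENSG00000196482, chromosome 1, 216503246 to 217137755, minus strand) had 39.9, 38.0 and 37.7 CPM in the knockout-labelled libraries, against 0.289, 0.168 and 0.310 CPM in wild type. These were 618, 745 and 634 counts in knockout-labelled libraries, beside 5, 3 and 5 counts in wild-type libraries. Every knockout-labelled library was high and every wild-type library was near the detection limit of 3 counts, with no overlap. The change was 148-fold, a log2 fold change of 7.21 (SE 0.18, 95% interval 6.87 to 7.62, edgeR adjusted p = 1.07e-20). By size it ranked 3 among the 1839 genes called higher. Since it passed the filter on low counts through the knockout-labelled group only, it had to differ to be tested. The SE and interval were derived from the test statistic and understate the counting error of the 13 wild-type counts. The log2 fold change was 6.97 to 7.36 when each library was left out in turn. On the TPM scale ESRRG held 11.5 to 12.1 TPM in knockout-labelled libraries and 0.0524 to 0.0899 TPM in wild type, which places it between NR2C2 and NR1I2 in the knockout-labelled group.

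No tested protein-coding gene within 500 kb of ESRRG was called. GPATCH2, on one side, had a log2 fold change of 0.20 (edgeR adjusted p = 0.135). ESRRG overlaps no other gene of the annotation. ESRRA, the family member with the broadest expression, had 131, 142 and 127 CPM in knockout-labelled and 140, 133 and 148 CPM in wild-type libraries. The groups overlapped (log2 fold change -0.07, SE 0.06, edgeR adjusted p = 0.451). ESRRA shares 284 of its 3030 exon bases with TRMT112 on the opposite strand, and reads in such shared bases cannot be told apart because the strand setting is not given. ESRRB, the third member, had at most 3 counts in any library.

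Thyroid hormone receptors carry thyroid hormone signals to DNA. THRB (ENSG00000151090, chromosome 3, 24117153 to 24495756, minus strand), the beta isoform gene, had 8.78, 11.7 and 11.2 CPM in knockout-labelled and 3.41, 3.31 and 3.53 CPM in wild-type libraries. All knockout-labelled values were above all wild-type values, and the rise was 3.10-fold (log2 fold change 1.63, SE 0.16, 95% interval 1.30 to 1.97, edgeR adjusted p = 8.66e-09). THRA, the alpha isoform gene, had 119, 135 and 130 CPM in knockout-labelled and 135, 125 and 130 CPM in wild-type libraries, which overlapped (log2 fold change -0.02, SE 0.06, edgeR adjusted p = 0.858). On the TPM scale THRA was far above THRB in both groups, at 56.5, 64.3 and 63.1 TPM in knockout-labelled and 62.0, 61.1 and 58.9 TPM in wild-type libraries, beside 2.64, 3.52 and 3.46 TPM and 0.992, 1.02 and 1.02 TPM for THRB in the same groups. NR1D2, RPL15 and UBE2E1 lie near THRB on chromosome 3 and were not called (log2 fold changes 0.12, -0.06 and 0.02). On the list of thyroid hormone handling and targets, 4 of 8 genes were tested, with 1 higher, 1 lower and a median log2 fold change of -0.34. For this and every other list the share over all tested genes was 12% higher and 12.4% lower, and no list was tested against it. All lists were chosen with earlier results of these data known. DIO3, which inactivates thyroid hormone, fell, with a mean of 1.2 ± 0.32 CPM in knockout-labelled and 16.8 ± 2.4 CPM in wild-type libraries (log2 fold change -3.78, SE 0.19, edgeR adjusted p = 7.99e-15). HR, which encodes the hairless corepressor of thyroid receptors, rose by 0.46 on the log2 scale (edgeR adjusted p = 6.65e-07).

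**Figure D2:**
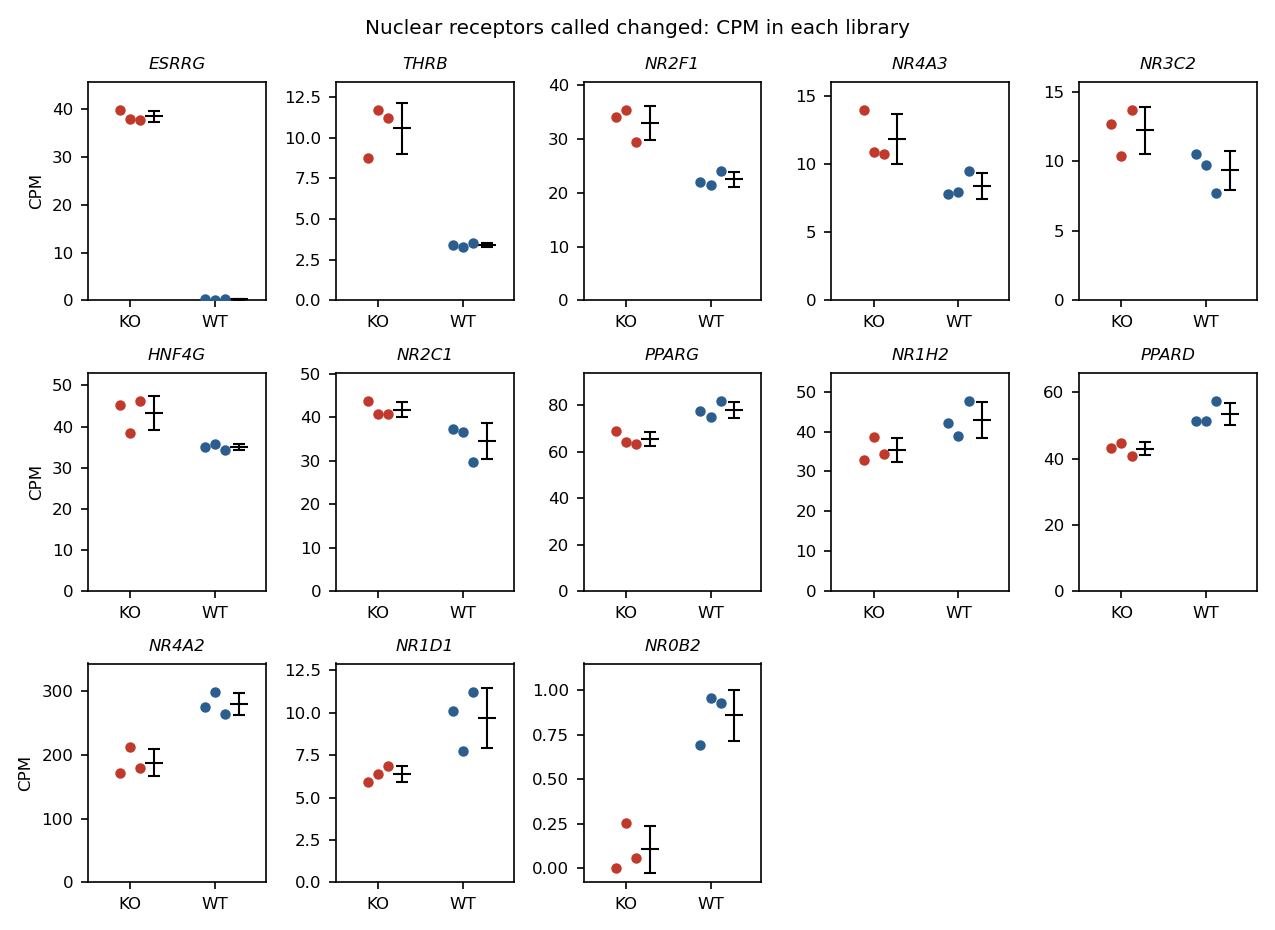
CPM of the 13 receptors called changed, each panel with its own axis starting at 0 (the NR0B2 axis starts just below 0). Points are libraries, knockout-labelled left of wild type, and bars are mean ± SD over 3 libraries. Groups do not overlap in any panel but NR3C2.

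The NR4A receptors are immediate early orphan receptors induced by growth factors and stress. Of their 3 genes, NR4A2 fell, NR4A3 rose and NR4A1 was not called. NR4A1 had 788, 858 and 795 CPM in knockout-labelled and 803, 875 and 925 CPM in wild-type libraries, with overlapping groups (log2 fold change -0.09, SE 0.06, edgeR adjusted p = 0.315). NR4A2, known also for its part in dopamine neurons, had 172, 212 and 180 CPM in knockout-labelled and 276, 299 and 265 CPM in wild-type libraries. Each knockout-labelled value lay below each wild-type value, and the fall was 0.57 on the log2 scale (SE 0.07, edgeR adjusted p = 1.18e-06). NR4A3 was lower in level and went the other way, with 14, 10.9 and 10.8 CPM in knockout-labelled and 7.80, 7.97 and 9.55 CPM in wild-type libraries (log2 fold change 0.49, SE 0.14, edgeR adjusted p = 0.0089). Its groups did not overlap. The NR4A3 call was lost without knockout-labelled library 1 (log2 0.36, adjusted p = 0.0874) or wild-type library 1 (log2 0.43, 0.0551).

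PPARs sense fatty acids. PPARG, the regulator of lipid storage that is high in colonic epithelium, had 69.0, 64.3 and 63.4 CPM in knockout-labelled and 77.4, 74.9 and 81.8 CPM in wild-type libraries. PPARD, a widely expressed member linked to fatty acid oxidation, had 43.2, 44.7 and 40.9 CPM in knockout-labelled and 51.4, 51.4 and 57.3 CPM in wild-type libraries. In both, all knockout-labelled libraries lay below all wild-type libraries, by a log2 fold change of -0.25 for PPARG (SE 0.07, edgeR adjusted p = 0.00642) and -0.31 for PPARD (SE 0.08, edgeR adjusted p = 0.00265). PPARA, which drives fatty acid oxidation in liver, had 68.3, 66.5 and 77.8 CPM in knockout-labelled and 77.0, 82.1 and 72.8 CPM in wild-type libraries, and the groups overlapped (log2 fold change -0.13, SE 0.07, edgeR adjusted p = 0.219).

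Called PPAR target genes went in both directions. Of 18 genes on the list of PPAR targets and fatty acid oxidation, 17 were tested, 3 called higher and 4 lower, with a median log2 fold change of -0.05. CD36, a fatty acid transporter, rose (log2 fold change 2.65, edgeR adjusted p = 0.000398). PDK4, a kinase that inhibits pyruvate dehydrogenase, fell (-3.84, adjusted p = 1.03e-06). Mean levels in knockout-labelled and wild-type libraries were low, at 1.39 and 0.212 CPM for CD36 and 0.154 and 2.31 CPM for PDK4. At a minimum count of 30 CD36 was not called. CD36 passed the filter on low counts through the knockout-labelled group only and PDK4 through the wild-type group only. Each therefore had to differ to be tested. The call was lower too for EHHADH, of peroxisomal oxidation (-0.34, adjusted p = 0.00766), which missed the threshold when wild-type library 1 was omitted (0.0527).

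Sterol, bile acid, vitamin D and xenobiotic receptors had 4 members above 1 CPM in each group. NR1H2, or LXR-beta, a sensor of oxysterols, had 32.9, 38.7 and 34.4 CPM in knockout-labelled and 42.1, 38.8 and 47.6 CPM in wild-type libraries. The highest knockout-labelled library lay just under the lowest wild-type library, and NR1H2 was called lower (log2 fold change -0.27, SE 0.09, edgeR adjusted p = 0.0207). That call was lost without knockout-labelled library 1 (adjusted p = 0.118), without knockout-labelled library 3 (0.0782) or without wild-type library 3 (0.122). NR1H3, or LXR-alpha, had 25.8, 25.8 and 20.6 CPM in knockout-labelled and 27.1, 24.8 and 29.8 CPM in wild-type libraries, and was not called (log2 fold change -0.18, edgeR adjusted p = 0.218). It shares 189 exon bases with ACP2 on the opposite strand, which was called higher. On the LXR target list, 5 of 9 genes were tested, with 1 higher and 2 lower. SREBF1, the lipogenic factor, fell (log2 fold change -0.34, adjusted p = 5.54e-05) as did the desaturase SCD (-0.28, adjusted p = 0.000555), while SMPDL3A, a phosphodiesterase, rose (0.47, adjusted p = 7.21e-06). SREBF1 shares 556 exon bases with RAI1 on the opposite strand.

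VDR, the receptor of vitamin D, had 156, 170 and 184 CPM in knockout-labelled and 150, 157 and 158 CPM in wild-type libraries. The groups overlapped and VDR was not called (log2 fold change 0.13, SE 0.06, edgeR adjusted p = 0.119), though it was called higher without knockout-labelled library 1 (0.19, adjusted p = 0.0392). On the vitamin D list, 6 of 11 genes were tested, 1 was higher and 3 lower, and the median log2 fold change was -0.40. CD14, a coreceptor for bacterial lipopolysaccharide, fell (log2 fold change -3.24, adjusted p = 6.66e-08), as did the tight junction gene CLDN2 (-0.36, adjusted p = 0.0113) and the calcium channel TRPV6 (-1.21, adjusted p = 0.0279). The calcium pump gene ATP2B1 rose (0.18, adjusted p = 0.0296). CD14 averaged 0.388 CPM in knockout-labelled and 3.70 CPM in wild-type libraries. CD14 passed the filter through the wild-type group only and so had to differ to be tested. CLDN2 missed the threshold when wild-type library 1 was omitted (0.0577), and the TRPV6 and ATP2B1 calls each held in 5 of 12 alternative fits.

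NR1I2, or PXR, a sensor of drugs, had 16.4, 17.5 and 17 CPM in knockout-labelled and 18.3, 19.6 and 16 CPM in wild-type libraries. Its groups overlapped (log2 fold change -0.08, SE 0.10, edgeR adjusted p = 0.618). NR1I3, or CAR, its relative, had 0.581 to 0.892 CPM in knockout-labelled and 0.224 to 0.751 CPM in wild-type libraries and was not called. NR1I3 shares 661 of its 3305 exon bases with TOMM40L on the opposite strand, so its level is uncertain. On the target list of PXR and CAR, 7 of 12 genes were tested. Of these, 4 were called higher (57.1%, beside 12% of all tested genes) and 0 lower (beside 12.4%), with a median log2 fold change of 0.75. ABCB1, the drug efflux pump P-glycoprotein, had a log2 fold change of 0.95 (SE 0.07, edgeR adjusted p = 2.36e-11), CYP3A5, a drug oxidase, 0.75 (adjusted p = 7.92e-07), and ABCC2, a conjugate pump, 0.98 (adjusted p = 0.00236). UGT1A1, a glucuronidation enzyme, rose by 0.45 (adjusted p = 8.54e-06), but shares exons with other UGT1A genes, so its counts are uncertain. NR1H4, or FXR, the bile acid receptor, had 0 counts in all 6 libraries. Of 8 FXR and bile acid genes, 5 were tested, 1 higher and 2 lower. FGF19, the enterokine that FXR induces in ileum, rose (log2 fold change 1.14, adjusted p = 6.31e-05), while FGFR4, its receptor (-0.50, adjusted p = 1.26e-05), and FABP6, the ileal bile acid binding protein (-0.63, adjusted p = 0.00222), fell.

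Retinoid receptors did not pass the test. RXRA, the common heterodimer partner, had 102, 105 and 101 CPM in knockout-labelled and 98.1, 102 and 103 CPM in wild-type libraries. RXRB had 49.4, 55.7 and 52.1 CPM in knockout-labelled and 57.1, 49.2 and 55.5 CPM in wild-type libraries. The groups overlapped in both, with log2 fold changes of 0.03 for RXRA (95% interval -0.09 to 0.15) and -0.04 for RXRB (95% interval -0.20 to 0.12). The retinoic acid receptor RARA had 29.2, 31.2 and 33.1 CPM in knockout-labelled and 28.9, 27.0 and 30.1 CPM in wild-type libraries (log2 fold change 0.12, edgeR adjusted p = 0.320). RARG had 35.9, 36.3 and 33.2 CPM in knockout-labelled and 41.1, 37.0 and 40.1 CPM in wild-type libraries, with no overlap but no call (log2 fold change -0.16, edgeR adjusted p = 0.138). RARB had at most 5 counts in any library and RXRG had 0. RXRB shares 244 exon bases with SLC39A7 on the opposite strand. On the list of retinoid genes, 9 of 17 were tested, with 3 higher and 0 lower. ALDH1A1, which makes retinoic acid, had a mean of 291 ± 7.90 CPM in knockout-labelled and 146 ± 8.85 CPM in wild-type libraries (log2 fold change 1, SE 0.06, edgeR adjusted p = 2.09e-13). RBP2, a retinol binding protein of the intestine, rose as well (2.62, adjusted p = 0.00105), as did CRABP2 (1.05, adjusted p = 0.0143), whose call was lost without knockout-labelled library 2 (adjusted p = 0.137) or wild-type library 1 (0.079), and by DESeq2 (0.0635). RBP2 averaged 1.10 CPM in knockout-labelled and 0.179 CPM in wild-type libraries and was not called at a minimum count of 30. RBP2 passed the filter through the knockout-labelled group only, so it had to differ to be tested.

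HNF4 receptors set the enterocyte and hepatocyte programmes. HNF4A had 213, 227 and 229 CPM in knockout-labelled and 210, 220 and 224 CPM in wild-type libraries, with overlap (log2 fold change 0.03, 95% interval -0.08 to 0.15, edgeR adjusted p = 0.726). HNF4G, its paralogue, had 45.2, 38.5 and 46.2 CPM in knockout-labelled and 35.0, 35.7 and 34.4 CPM in wild-type libraries, with no overlap (log2 fold change 0.30, SE 0.08, edgeR adjusted p = 0.00701). That call was lost without knockout-labelled library 3 (adjusted p = 0.0551). Of 13 HNF4 targets, 5 were tested and SERPINA1, encoding alpha-1 antitrypsin, was lower (log2 fold change -0.85, adjusted p = 0.000355).

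The orphan receptors of subfamily 2 include 5 that were tested, 2 called higher (beside 12% of all tested genes) and 0 lower (beside 12.4%). NR2F1, or COUP-TFI, had 34.1, 35.4 and 29.5 CPM in knockout-labelled and 22.0, 21.4 and 24.1 CPM in wild-type libraries, with no overlap (log2 fold change 0.56, SE 0.09, edgeR adjusted p = 3.33e-05). NR2F1-AS1, on the opposite strand, was also called higher (0.41, adjusted p = 0.044), and shares 158 exon bases with NR2F1. NR2F2, or COUP-TFII, had 72.0, 71.0 and 73.1 CPM in knockout-labelled and 78.4, 79.3 and 79.5 CPM in wild-type libraries; the groups did not overlap but the change did not pass (log2 fold change -0.13, edgeR adjusted p = 0.129). NR2F6 had 156, 163 and 150 CPM in knockout-labelled and 168, 154 and 194 CPM in wild-type libraries (log2 fold change -0.14, edgeR adjusted p = 0.162), which was called lower without wild-type library 2 (-0.21, adjusted p = 0.00507). NR2C1, or TR2, had 43.7, 40.6 and 40.7 CPM in knockout-labelled and 37.4, 36.6 and 29.8 CPM in wild-type libraries, and was higher (log2 fold change 0.27, SE 0.09, edgeR adjusted p = 0.0234). The NR2C1 call was lost without knockout-labelled library 1 (0.23, adjusted p = 0.109) or wild-type library 3 (0.17, 0.176), and in DESeq2 (adjusted p = 0.077). NR2C2, or TR4, its close relative, had 54.0, 51.0 and 56.8 CPM in knockout-labelled and 49.0, 55.9 and 48.0 CPM in wild-type libraries, with overlap and no call (edgeR adjusted p = 0.497), and it shares 155 exon bases with FGD5-AS1 and 1197 with MRPS25 on the opposite strand. Outside this subfamily, NR6A1, or GCNF, the germ cell factor, had 10.5, 11.8 and 10.8 CPM in knockout-labelled and 13.1, 13.1 and 10.4 CPM in wild-type libraries, also overlapping (edgeR adjusted p = 0.434).

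Steroid hormone receptors were sparse. NR3C2, the mineralocorticoid receptor, had 12.7, 10.4 and 13.7 CPM in knockout-labelled and 10.5, 9.76 and 7.75 CPM in wild-type libraries. The groups overlapped, yet it was called higher (log2 fold change 0.38, SE 0.14, edgeR adjusted p = 0.0428). The call was lost without knockout-labelled library 1 (adjusted p = 0.132), knockout-labelled library 3 (0.211) or wild-type library 3 (0.212), and by DESeq2 (adjusted p = 0.157). NR3C1, the glucocorticoid receptor, had 0 counts in all 6 libraries, although its neighbour ARHGAP26 was measured at 30.3 ± 2.99 CPM in knockout-labelled and 32.1 ± 1.61 CPM in wild-type libraries. A count of 0 allows up to 3 counts, which is 0.153 to 0.194 CPM per library in the knockout-labelled group and 0.168 to 0.186 CPM in wild type; like all counts here, this covers counting error only. ESR2, the oestrogen receptor beta, had 1.87, 1.48 and 2.26 CPM in knockout-labelled and 0.693, 1.40 and 0.992 CPM in wild-type libraries, higher in every knockout-labelled library without passing (log2 fold change 0.85, SE 0.35, edgeR adjusted p = 0.0785), and passing without wild-type library 2 (1.14, adjusted p = 0.0296). SYNE2 overlaps part of ESR2 on the opposite strand but shares 0 exon bases with it. AL161756.1, on the same strand, shares 523 exon bases with ESR2, and reads in those bases cannot be told apart. AL161756.1 had 41 counts in knockout-labelled and 23 in wild-type libraries and was not called (log2 fold change 0.80, edgeR adjusted p = 0.251). ESR1 had at most 4 and PGR at most 1 count in any library.

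On the corticosteroid target list, 9 of 13 genes were tested, with 2 higher and 4 lower. SCNN1A, a sodium channel subunit, fell (log2 fold change -0.70, adjusted p = 1.02e-09), as did TSC22D3, or GILZ (-0.75, adjusted p = 4.73e-07), and the clock gene PER1 (-0.26, adjusted p = 0.0135), while NFKBIA, the NF-kB inhibitor, rose (0.36, adjusted p = 0.000153). The PER1 call was lost without knockout-labelled library 2 (adjusted p = 0.0633) or wild-type library 3 (adjusted p = 0.082). SCNN1A shares 422 exon bases with LTBR on the opposite strand. Of 9 oestrogen receptor targets, 7 were tested, 2 higher and 4 lower. TFF1, a mucosal peptide, fell (log2 fold change -1.96, adjusted p = 4.62e-12), as did the protease gene CTSD (-0.48, adjusted p = 5.29e-07) and IGFBP4 (-0.37, adjusted p = 3.76e-05), while AREG, an EGF receptor ligand, rose (0.76, adjusted p = 1.21e-10).

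REV-ERB and ROR receptors compete on clock gene promoters, REV-ERBs as repressors and RORs as activators. NR1D1, or REV-ERB-alpha, had 5.94, 6.38 and 6.84 CPM in knockout-labelled and 10.1, 7.74 and 11.2 CPM in wild-type libraries. Each knockout-labelled library was below each wild-type library, and NR1D1 was called lower (log2 fold change -0.60, SE 0.15, edgeR adjusted p = 0.00433). It shares 263 of its 2772 exon bases with THRA on the opposite strand. NR1D2, or REV-ERB-beta, had 46.7, 37.7 and 38.8 CPM in knockout-labelled and 38.9, 38.5 and 36.0 CPM in wild-type libraries, overlapping (log2 fold change 0.12, edgeR adjusted p = 0.345). RORA had 2.06, 1.79 and 2.79 CPM in knockout-labelled and 1.62, 1.12 and 0.992 CPM in wild-type libraries, higher in each but not called (0.82, edgeR adjusted p = 0.0608), and called without wild-type library 1 (1.05, adjusted p = 0.0497). RORA shares 564 exon bases with RORA-AS1 on the opposite strand. RORB had 0 counts throughout. In the clock list 13 of 14 genes were tested, with 3 higher, 3 lower and a median log2 fold change of -0.02. BHLHE41, a clock repressor, rose (2.23, adjusted p = 4.06e-13), as did HLF (0.58, adjusted p = 0.00042), while PER3 (-2.38, adjusted p = 4.16e-09) and NPAS2 (-0.48, adjusted p = 4.43e-05) fell.

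NR0B2, or SHP, a receptor without a DNA binding domain that represses bile acid synthesis in liver, was called lower at very low counts. It had 0, 5 and 1 counts in knockout-labelled libraries, beside 12, 17 and 15 counts in wild type, which were 0, 0.255 and 0.0595 CPM in knockout-labelled and 0.693, 0.954 and 0.930 CPM in wild-type libraries. The groups did not overlap (log2 fold change -2.83, SE 0.67, edgeR adjusted p = 0.00185), and the change was -4.50 without knockout-labelled library 2. Since NR0B2 passed the filter on low counts through the wild-type group only, it had to differ to be tested. At a threshold of 0.5 CPM, or at 1 TPM, NR0B2 switched off in knockout-labelled libraries. NR0B2 lies wholly within NUDC on the opposite strand, sharing 0 exon bases with it, and NUDC was itself called lower (log2 fold change -0.28, adjusted p = 0.00179). The photoreceptor factor NR2E3 had at most 6 counts in any library. NR5A1 and NR5A2, steroidogenic and endodermal factors, had at most 3 counts in any library, and NR0B1 and NR2E1 had 0.

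**Figure D3:**
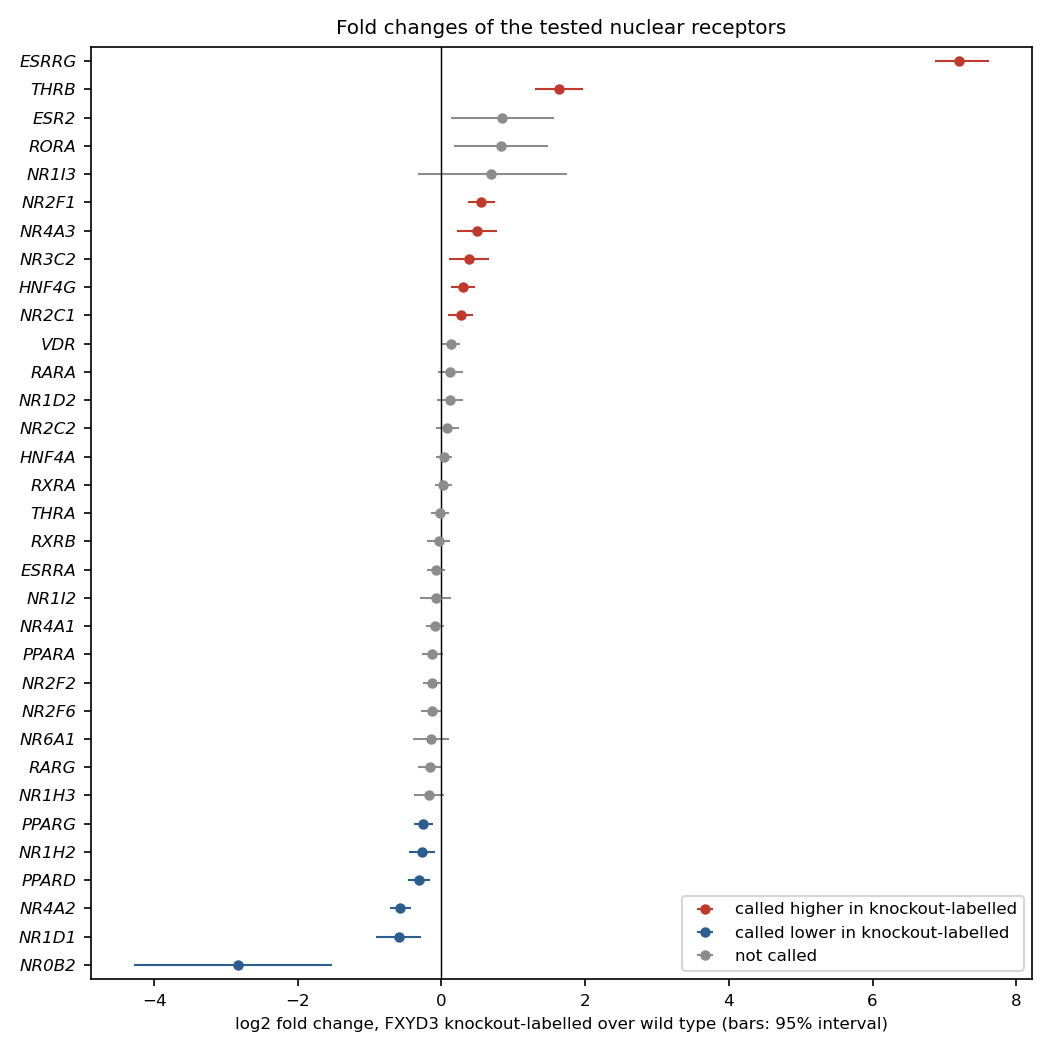
Log2 fold change, knockout-labelled over wild type (horizontal axis), of the 33 tested receptors, with 95% intervals derived from the edgeR test statistic. The interval drawn for ESRRG understates its counting error. ESRRG (7.21) stands far to the right of all others, THRB (1.63) is next among those called, and NR0B2 (-2.83) is furthest to the left with a wide interval.

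Receptors recruit coactivators and corepressors to change transcription, and the called share of all tested genes beside these lists was 24.3%. Of 14 coactivators, all were tested, 1 was called higher and 0 lower, with a median log2 fold change of 0.12. NCOA4, which also targets ferritin for breakdown, rose by 0.18 (adjusted p = 0.0189), in 7 of 12 alternative fits. Of 9 corepressors, NRIP1, or RIP140, rose (0.23, adjusted p = 0.0454) and HDAC3, a histone deacetylase, fell (-0.20, adjusted p = 0.0338), each called in 6 of 12 alternative fits. Over all 13 lists, 110 of 155 genes were tested, with 23 called higher (20.9%, beside 12% of all tested genes) and 25 lower (22.7%, beside 12.4%), and the median log2 fold change was -0.01. These shares were not tested against those of all genes, and the lists were chosen with earlier results of these data known. The called genes include CD36, PDK4, CD14 and RBP2, which had to differ to be tested.

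**Figure D4:**
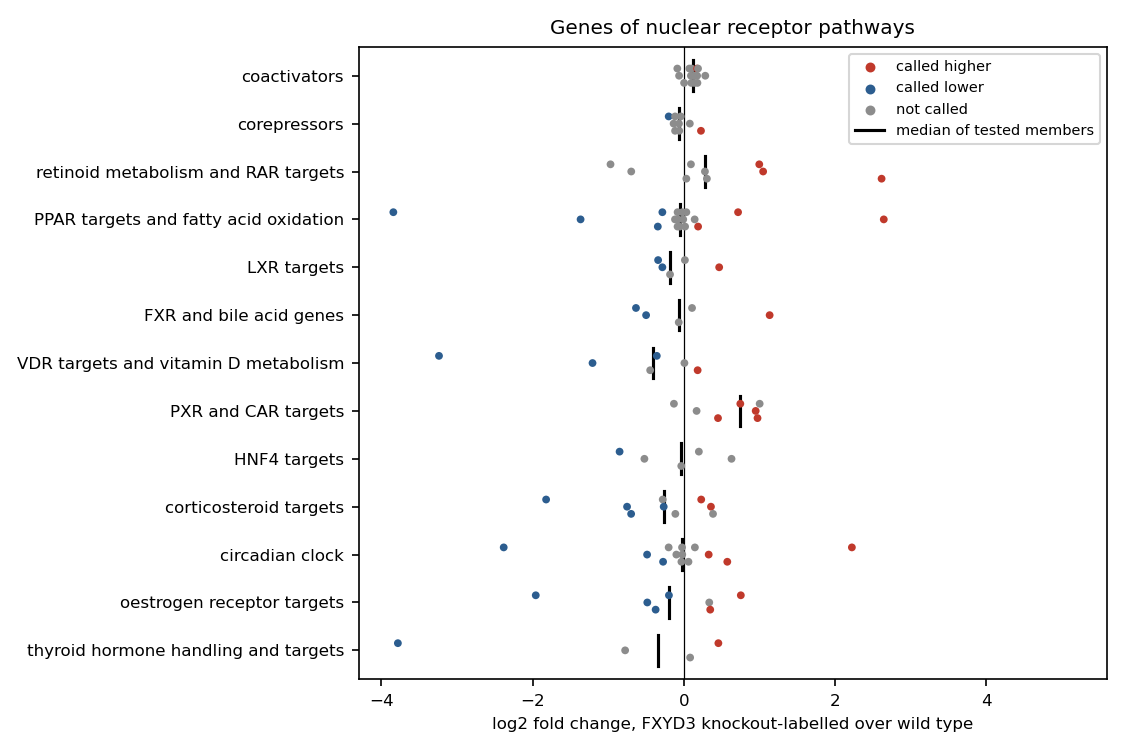
Log2 fold change, knockout-labelled over wild type (horizontal axis), of each tested gene on the 13 receptor pathway lists (rows). Points are genes coloured by call and black bars are list medians, which run from -0.40 for vitamin D genes to 0.75 for PXR and CAR targets.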

How the data were processed

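Per the labels' protocols, poly(A) RNA was extracted with TRIzol and made into libraries with NEBNext Ultra reagents. HISAT2 2.0.5 and featureCounts 1.5.0-p3 are named in the submitters' processing notes together with the mouse build mm10, whereas all 58735 named identifiers are human and match GENCODE release 29; the sources used here give neither annotation nor strand setting. The authors deposited whole-number counts per gene with no normalization, beside gene lengths in bases, from which TPM was computed here. The 232 rows without a gene name (0.130 to 0.250% of a library) were left out.

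Groups came from the genotype labels. edgeR 4.0.16 (R 4.3.3) was run as a two-sided quasi-likelihood test with TMM normalization, a filterByExpr minimum count of 10 and robust spread, on 15351 genes, with Benjamini-Hochberg adjustment. Tables and plots used Python 3.11.15. The testing step was tested on simulated data in which every gene had the same spread. That check does not measure how reliable the small fold changes called here are. The alternatives were RLE and total-count scaling, no filter or a minimum count of 30, DESeq2 1.42.0, other thresholds of expression (0.5 and 2 CPM, 1 TPM), a replicate block, and leaving out each library. All 46 receptors are accounted for; called, group-specific and abundant ones (at least 10 CPM) are given in every library, and up to 4 called genes by smallest p per list are named, apart from some genes not reported here. Members and lists were chosen with earlier results of these data known.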

Additional observations from a re-analysis of the deposited data

How the results depend on the processing

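Of the 13 receptor calls, 7 (ESRRG, THRB, NR2F1, NR4A2, PPARG, PPARD and NR1D1) were made in all 12 alternative fits, and 5 to 8 receptors were called higher and 5 to 7 lower across those fits. The switching count was 2 at 0.5 CPM and at 1 TPM, by adding NR0B2, and 1 to 2 when libraries were left out, by adding ESR2 without wild-type library 2. THRA changed sign to 0.00543 with total counts, and with libraries left out it ran from -0.0637 to 0.0312 (0.00574 without wild-type library 1); RXRB ran from -0.103 to 0.00066 (4.51e-05 without wild-type library 1). Neither was called. FXYD3 passed the threshold with no filter (0.52, adjusted p = 0.0479), and its log2 fold change was up to 0.79 without wild-type library 2. RORA was called at a minimum count of 30 (0.83, adjusted p = 0.0431), where NR0B2 was not tested. The causes were not tested.

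Deviations of same-numbered libraries from their group means correlated at 0.0234, -0.0751 and -0.0959, and those of differently numbered ones at -0.0401 to 0.115. These values show no pairing by number. They cannot tell whether same-numbered libraries shared a culture or day, which the labels do not give. With the replicate number as a block, 1478 genes were called higher and 1475 lower, beside 1839 and 1896 without it, FXYD3 had 0.54 (adjusted p = 0.0472) and NR3C2 lost its call (0.38, adjusted p = 0.070). Of the 39 list genes that the naming rule took, 28 were called in every alternative. Depth limits the receptors below about 1 CPM.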
